A study of Mus musculus with 19 samples.

Results

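The effect of the Etv5KO genotype was compared between sorted alveolar type II (AT2) cells and whole lung. For each gene, the log2 fold change from control to Etv5KO in lung was subtracted from the same change in AT2 cells. A negative difference means that the level in libraries labelled Etv5KO, set against controls, was lower in AT2 cells than in lung, and a positive difference means that it was higher. All 19 libraries of the series entered the comparison, 9 of AT2 cells and 10 of lung, and 17698 of 36528 gene IDs had enough counts to be tested.

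Both genotypes carried SpcCreERT2, a tamoxifen-activated Cre recombinase under the promoter of the surfactant protein C gene, and RosatdTomato, a red fluorescent reporter that Cre switches on. Mice labelled Etv5KO carried in addition the Etv5ko/loxp alleles, a knockout allele and an allele that Cre can delete. All mice received tamoxifen at 100 mg/kg body weight for 5 days and were left for 5 further days, so that Cre, reporter and tamoxifen were shared by controls and Etv5KO. AT2 cells were sorted as positive for EpCAM and tdTomato and negative for CD45 and CD31. AT2 cells gave 4 control libraries and 5 labelled Etv5KO, and lung gave 5 of each. Lung tissue holds AT2 cells among endothelial, stromal, immune and other epithelial cells, in which the loxP allele is not a target of a Cre made in AT2 cells, while the knockout allele does not depend on Cre. The labels give no age for the mice and do not tie AT2 and lung libraries to the same mouse, so the test of the difference treats all libraries as independent.

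Etv5 is a transcription factor of the PEA3 group of the ETS family, whose genes are activated downstream of fibroblast growth factor receptors and the ERK kinase cascade. ETS factors bind DNA around a GGAA core. AT2 cells make and secrete surfactant, which keeps the alveolus open, and they serve as progenitors of the flat AT1 cells across which gas is exchanged. Etv5 is known to be highly expressed in AT2 cells and to take part in keeping their identity.

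Total counts lay between 14971793 and 28671262 per library. Sftpc, the surfactant protein C gene and the defining marker of AT2 cells, took 4.98% to 7.71% of the counts in AT2 libraries and 0.807% to 1.18% in lung libraries. Control AT2 library 2 was apart from the remaining AT2 libraries on principal component 2, scoring 47.33 against −32.34 to 17.57 for those. In lung, control library 1 was apart from the other controls on principal component 1, scoring −29.43 against 10.78 to 22.97. Etv5KO lung libraries scored −24.89 to 5.02 there. Levels are given in CPM (counts relative to library size, scaled over all 19 libraries by TMM), in the order of the libraries' numbers, which only name them (control AT2 1 is the first control library of AT2 cells). A gene is said to have passed, risen or fallen where its Benjamini-Hochberg adjusted p from edgeR's quasi-likelihood test was under 0.05. The labels do not say outright that libraries of a group came from separate mice, so the p-values measure the spread between these libraries.

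Etv5 itself (Entrez Gene 104156), the targeted gene, had a higher mean level in Etv5KO libraries than in controls in both tissues. It stood at 718, 665, 649.6 and 636 CPM in control AT2 cells and at 731, 761, 750.5, 711 and 615 CPM in Etv5KO AT2 cells. In lung it stood at 92.9, 103, 109, 112 and 101 CPM in controls and at 119, 112, 94.4, 119.5 and 119 CPM in Etv5KO. The groups overlapped in both tissues. The log2 fold change was 0.10 in AT2 cells and 0.13 in lung, and the difference was −0.03 (SE 0.11, 95% interval −0.26 to 0.21, edgeR adjusted p 0.98). The counts cover the whole gene model, so the level of Etv5 does not check the deletion, and each direction below compares libraries by their labels.

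The Etv5KO effect differed between AT2 cells and lung for 282 of 17698 genes, 1.59% of those tested. The difference was positive for 140 genes (0.791%) and negative for 142 (0.802%), and it was at least 2-fold for 131 of the 282. Of the 282 genes, 281 had also passed in AT2 cells, and 11 of these had passed in lung too. The remaining gene, Ephx2, passed in neither tissue alone. In AT2 cells 1793 genes passed in all (10.1% of those tested), 877 higher (4.96%) and 916 lower (5.18%), while in lung 122 passed (0.689%), 70 higher (0.396%) and 52 lower (0.294%). Scaled by library size alone, the AT2 split moved to 1193 higher and 630 lower, and the share of positive differences was 59.25% in place of 49.65%. The median size of the log2 change among the 282 genes was 1.03 in AT2 cells and 0.12 in lung. In AT2 cells 277 of the 282 had no overlap between control and Etv5KO libraries, against 10.8% of all genes tested, and in lung 18 had none, against 1.56%. The 282 were chosen by a test on these same libraries. Their sizes of change and their separation in AT2 cells follow from that choice and are not separate support. Without control AT2 library 2, 319 genes passed, 245 of them shared with the 282. Without control lung library 1, 288 passed, 244 of them shared, and 142 passed in lung. The count was lowest, at 198, without control AT2 library 1, and the negative count fell to 88 without that library and to 85 without control AT2 library 3. In bulk samples such as these, fewer cells of a type and less RNA per cell cannot be told apart.

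**Figure D1:**
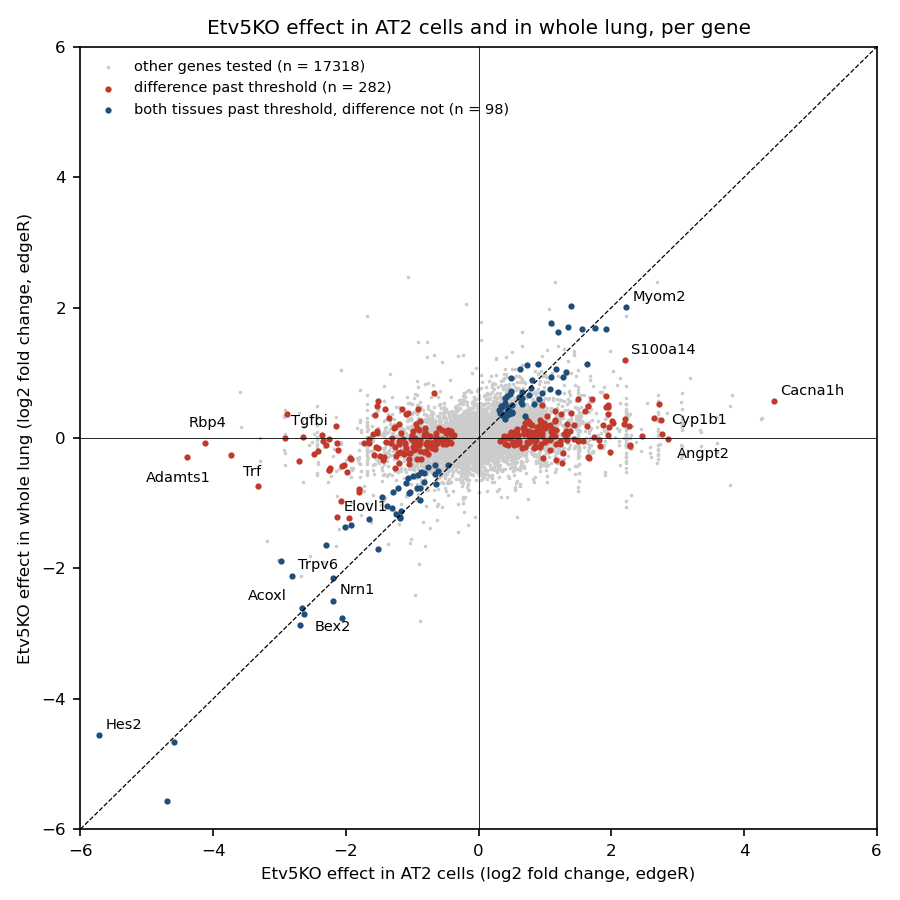
Log2 fold change from control to Etv5KO in AT2 cells (x axis) and in whole lung (y axis), 1 point per gene tested, with the line of equal change dashed. The 282 genes whose difference passed lie mostly along the horizontal axis, and the 98 genes that passed in both tissues without a difference lie along the dashed line.

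The rankings below hold only genes over a floor, a mean of at least 1 CPM in both tissues and 5 CPM in 1 group. Of the 282 genes, 251 met this floor. Etv4, under it, had a larger positive difference (2.20) than some genes ranked. The most negative differences were those of Adamts1, Rbp4, Trf and Tgfbi, which all encode secreted proteins. Adamts1, a matrix metalloprotease, stood at 156, 298, 221 and 167 CPM in control AT2 cells and at 8.21, 12, 9.01, 7.37 and 13.4 CPM in Etv5KO AT2 cells. Lung held 207, 125, 117, 115 and 120.3 CPM in controls and 75.3, 125, 156, 88.4 and 113 CPM in Etv5KO. The AT2 groups were far apart and the lung groups overlapped, with control lung library 1 above the other controls. The log2 fold change was −4.39 in AT2 cells and −0.30 in lung, a difference of −4.10 (SE 0.33, 95% interval −4.79 to −3.40, edgeR adjusted p 3.57e-07).

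Rbp4, the plasma carrier of retinol, stood at 36.6, 23.4, 46.6 and 37.5 CPM in control AT2 cells and at 1.77, 2.59, 2.41, 1.21 and 2.27 CPM in Etv5KO AT2 cells. It stood at 9.26, 12.7, 9.56, 13.7 and 11.3 CPM in control lung and at 11, 12.6, 10.8, 9.09 and 9.86 CPM in Etv5KO lung. Every Etv5KO AT2 library thus lay below every lung library, while every control AT2 library lay above every lung library. The difference was −4.04 (SE 0.27, edgeR adjusted p 2.38e-08).

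Trf, the iron carrier transferrin, gave the smallest p of the comparison. It stood at 856, 596, 884 and 696 CPM in control AT2 cells and at 60.9, 55.6, 44.2, 75 and 49.5 CPM in Etv5KO AT2 cells, a log2 fold change of −3.73. Its lung levels were 391, 429, 451, 490.4 and 446 CPM in controls and 378, 379, 327, 373 and 390.2 CPM in Etv5KO. The lung groups did not overlap either, by a narrow margin, but the lung change of −0.26 (95% interval −0.51 to −0.00) did not pass (edgeR adjusted p 0.925). The difference was −3.47 (SE 0.18, edgeR adjusted p 5.76e-10). Tgfbi, a matrix protein that binds integrins and collagen, stood at 72.5, 61.5, 97 and 79.5 CPM in control AT2 cells and at 11.1, 11.2, 7.65, 10.6 and 11 CPM in Etv5KO AT2 cells. In lung, where its level was higher, it stood at 189, 157, 119.5, 144 and 132 CPM in controls and at 117, 175, 140.2, 177 and 135 CPM in Etv5KO. The lung groups overlapped widely, with a log2 fold change of 0.01, and the difference was −2.92 (SE 0.21, edgeR adjusted p 1.04e-07).

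The other 6 of the 10 most negative differences were those of Gdpd2, Lrrn3, Slit3, Ppp1r3c, St6galnac3 and Arg1. Ppp1r3c, which directs a phosphatase to glycogen, stood at 26.8, 34.7, 35.2 and 21.9 CPM in control AT2 cells and at 6.96, 5.6, 6.05, 4.95 and 5.78 CPM in Etv5KO AT2 cells. Its lung groups overlapped, at 20.4 to 26.2 CPM in controls and 15 to 32 CPM in Etv5KO, and the difference was −2.29 (SE 0.25, edgeR adjusted p 1.79e-05). Slit3, a ligand of Robo receptors, was mostly a lung transcript, at 73.1 to 131 CPM in control lung and 63.7 to 159 CPM in Etv5KO lung. In AT2 cells it went from 9.12 ± 3.36 CPM (SD, n = 4) to 2.05 ± 0.698 CPM (SD, n = 5), and the difference was −2.34 (SE 0.38, edgeR adjusted p 0.00171). The sialyltransferase gene St6galnac3 and the leucine-rich repeat membrane protein gene Lrrn3 were likewise higher in control lung, at 27.4 and 12.4 CPM, than in control AT2 cells, at 2.88 and 1.85 CPM. Both fell in AT2 cells, with differences of −2.22 and −2.41 (edgeR adjusted p 0.000111 and 0.000271). Gdpd2, of the glycerophosphodiester phosphodiesterase family, had a difference of −2.59 (edgeR adjusted p 0.00418), with lung means of 12.6 CPM in controls and 7.57 CPM in Etv5KO. Control AT2 library 2 was the highest AT2 control for Gdpd2, at 20.8 CPM.

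Arg1, the arginase of the urea cycle, completed the 10. It stood at 24.6, 12.4, 23.8 and 14.4 CPM in control AT2 cells and at 9.12, 4.65, 5.54, 8.01 and 5.78 CPM in Etv5KO AT2 cells, and at 5.65, 3.4, 2.98, 5.68 and 2.27 CPM in control lung and 2.43, 8.97, 5.5, 3.42 and 9.73 CPM in Etv5KO lung. The lung estimate lay in the other direction, at 0.57, and did not pass (edgeR adjusted p 1.0). The difference of −2.09 (SE 0.49, edgeR adjusted p 0.0322) did not pass without control AT2 1 or 3, Etv5KO AT2 2, 3 or 5, control lung 2, 3 or 5 or Etv5KO lung 2 or 5 (adjusted p up to 0.0884).

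**Figure D2:**
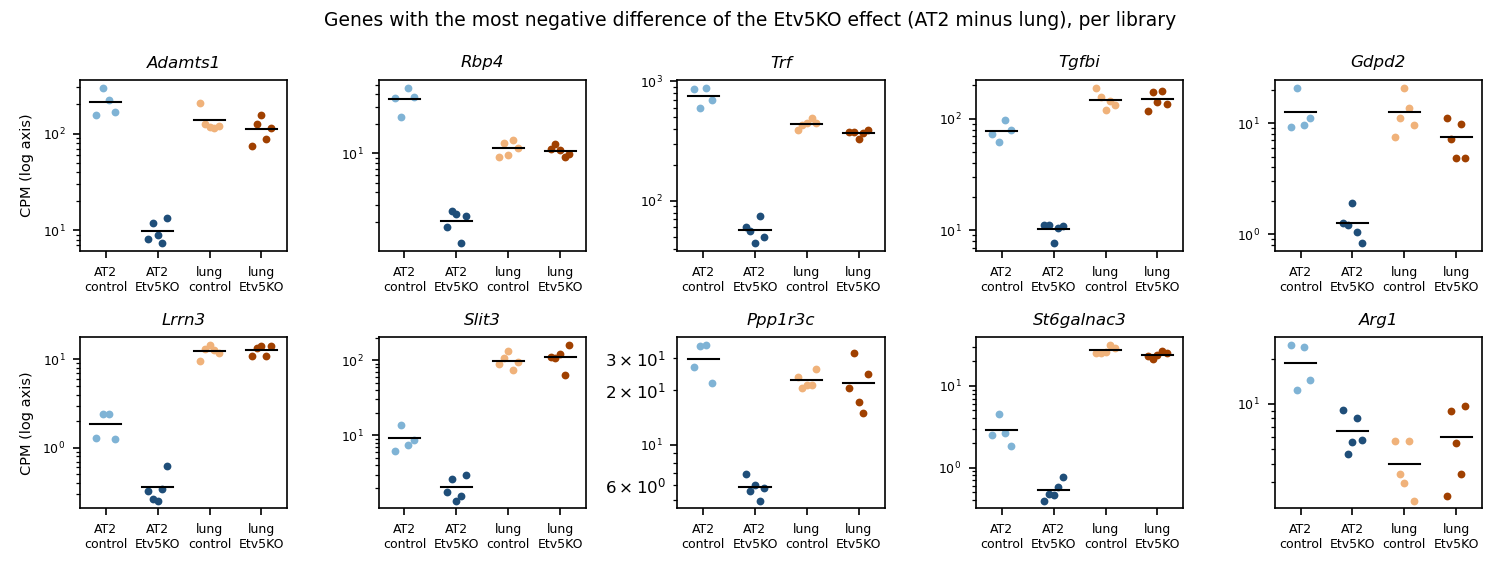
CPM per library on log axes for the 10 genes over the CPM floor with the most negative difference, with points for libraries and lines for group means. The AT2 Etv5KO libraries lie below the AT2 controls for all 10 genes, while the lung groups overlap for every gene but Trf.

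Promoter sequences are shown for genes with large changes that matched the RefSeq promoter table (build GRCm38.p6), as the 250 bases before the transcription start, read 5′ to 3′ on the gene's strand. Capitals mark the ETS core GGAA or its reverse complement TTCC. The promoters of Adamts1 (chr16:85803114-85803363, minus strand) and Ppp1r3c (chr19:36736605-36736854, minus strand), which fell in AT2 cells and did not pass in lung, read as follows.
Adamts1: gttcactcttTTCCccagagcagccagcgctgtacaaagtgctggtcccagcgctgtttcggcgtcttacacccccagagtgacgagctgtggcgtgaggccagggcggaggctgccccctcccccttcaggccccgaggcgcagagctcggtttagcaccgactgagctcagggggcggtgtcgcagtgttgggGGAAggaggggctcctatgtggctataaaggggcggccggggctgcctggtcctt
Ppp1r3c: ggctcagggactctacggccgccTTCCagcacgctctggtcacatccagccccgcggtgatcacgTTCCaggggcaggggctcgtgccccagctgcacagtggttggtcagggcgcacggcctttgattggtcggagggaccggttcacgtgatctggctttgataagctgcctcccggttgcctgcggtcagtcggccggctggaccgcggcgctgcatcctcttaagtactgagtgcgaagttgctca

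The most positive differences were led by Cacna1h, the pore-forming subunit of a T-type calcium channel. It stood at 0.0543, 0.341, 0.346 and 0.178 CPM in control AT2 cells and at 3.28, 6.28, 6, 4.95 and 6.09 CPM in Etv5KO AT2 cells. Control AT2 cells thus held it near the limit of counting, and Etv5KO AT2 cells held more than any lung library. Control lung libraries held 1.15, 1.76, 1.31, 1.37 and 1.48 CPM and Etv5KO lung libraries 2.31, 2.17, 2.39, 1.96 and 1.52 CPM, with overlap, a log2 fold change of 0.56 and an edgeR adjusted p of 0.648. The difference was 3.89 (SE 0.39, 95% interval 3.08 to 4.70, edgeR adjusted p 6.21e-06). Atp2b2, a plasma membrane pump that exports calcium, also had a positive difference, of 2.44 (SE 0.47, edgeR adjusted p 0.00666). It went from 0.482 ± 0.184 to 2.71 ± 0.889 CPM in AT2 cells and stood at 8.07 ± 3.15 and 8.19 ± 2.24 CPM in control and Etv5KO lung (SD).

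A secreted and a membrane-bound signalling ligand were among the 10. Angpt2, a ligand of the endothelial receptor Tie2, stood at 2.82, 1.22, 1.69 and 1.9 CPM in control AT2 cells and at 14.6, 16.6, 14.2, 12 and 11.3 CPM in Etv5KO AT2 cells, a 7.25-fold rise. In lung, where it was more abundant, it stood at 22.2, 21.8, 41.5, 35.8 and 29.2 CPM in controls and at 25, 31.2, 26.7, 28.4 and 37.7 CPM in Etv5KO, with wide overlap. The difference was 2.88 (SE 0.30, edgeR adjusted p 1.28e-05). Sema6c, a transmembrane semaphorin, went from 0.529 ± 0.119 to 3.57 ± 1.02 CPM in AT2 cells and from 4.46 ± 0.998 to 5.43 ± 0.858 CPM in lung (SD), where it did not pass, and the difference was 2.47 (SE 0.34, edgeR adjusted p 0.00025).

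Cyp1b1, a cytochrome P450 that oxidises steroids and aromatic hydrocarbons, stood at 2.93, 2.58, 2.64 and 2.31 CPM in control AT2 cells and at 16.9, 22.2, 18, 17.4 and 15 CPM in Etv5KO AT2 cells. The lung libraries measured 8.37, 17.9, 15.1, 15.4 and 14.1 CPM in controls and 17, 13.4, 13.2, 16 and 14 CPM in Etv5KO. Etv5KO AT2 libraries thus overlapped the range of lung, all of which lay above the control AT2 libraries, and the difference was 2.71 (SE 0.24, edgeR adjusted p 1.02e-06). Ncf1, the p47 subunit of the phagocyte NADPH oxidase, stood at 22.8, 16.6, 23.9 and 22.5 CPM in control AT2 cells and at 93.6, 91.7, 121, 90.0 and 95.2 CPM in Etv5KO AT2 cells. In lung it stood at 67.4, 64.7, 58.1, 62.6 and 49.9 CPM in controls and at 65, 74.5, 65.9, 79 and 67.4 CPM in Etv5KO, with overlap, and the difference was 1.98 (SE 0.15, edgeR adjusted p 2.31e-07). The carboxylesterase gene Ces1g had a difference of 2.20 (edgeR adjusted p 0.00214), from 0.917 to 3.72 CPM in AT2 cells and 8.01 and 6.87 CPM in control and Etv5KO lung.

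Rapgef4, an exchange factor for Rap that is activated by cyclic AMP, and Ccdc88b, a coiled-coil protein of the Hook-related family, were mainly lung transcripts in controls. Rapgef4 rose 4.87-fold in AT2 cells, from 1.06 to 5.1 CPM, and stood at 21.9 and 20.3 CPM in control and Etv5KO lung, a difference of 2.39 (edgeR adjusted p 2.83e-05). Ccdc88b rose 4.85-fold in AT2 cells, from 2.07 to 10.2 CPM, and stood at 36.5 and 33.5 CPM in lung, a difference of 2.40 (edgeR adjusted p 0.000494). The last of the 10, an unnamed ID (Entrez Gene 102632321), had a difference of 1.97. Its counts were between 0.191 and 0.207 times those of Cyp2f2 in every library, so it cannot be told apart from Cyp2f2.

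**Figure D3:**
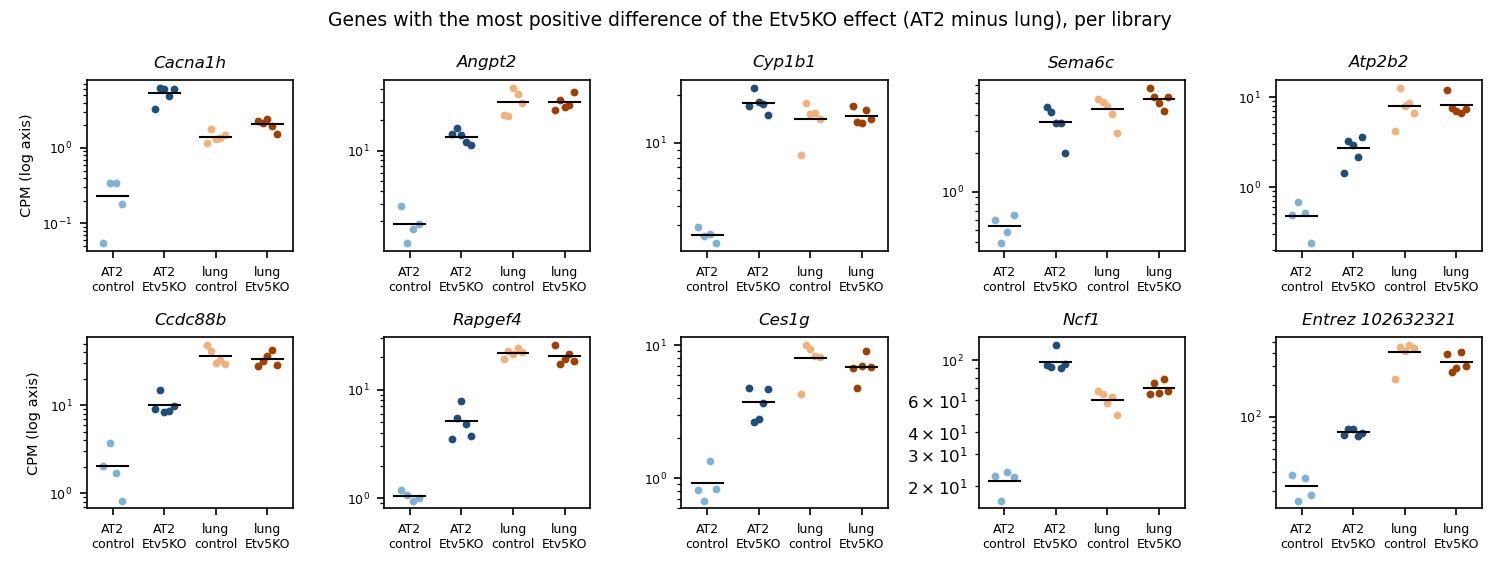
CPM per library on log axes for the 10 genes over the CPM floor with the most positive difference, with points for libraries and lines for group means. All AT2 Etv5KO libraries lie above all AT2 controls, and the lung groups overlap in each panel.

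The promoters of Cyp1b1 (chr17:79715062-79715311, minus strand) and Ncf1 (chr5:134229626-134229875, minus strand), which rose in AT2 cells and did not pass in lung, are shown in the same form.
Cyp1b1: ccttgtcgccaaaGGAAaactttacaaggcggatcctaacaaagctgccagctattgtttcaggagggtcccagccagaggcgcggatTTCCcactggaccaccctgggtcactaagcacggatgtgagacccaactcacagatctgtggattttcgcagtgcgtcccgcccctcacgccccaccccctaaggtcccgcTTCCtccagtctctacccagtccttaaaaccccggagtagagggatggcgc
Ncf1: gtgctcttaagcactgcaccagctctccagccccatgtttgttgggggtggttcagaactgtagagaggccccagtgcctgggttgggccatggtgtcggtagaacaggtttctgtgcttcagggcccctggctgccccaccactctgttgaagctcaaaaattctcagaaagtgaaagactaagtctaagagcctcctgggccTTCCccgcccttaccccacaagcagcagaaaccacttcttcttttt

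Genes that changed alike in both tissues formed the other pole of the comparison. In all, 109 genes passed in both tissues, each with the same sign in AT2 cells and lung, and none had opposite signs. For 98 of them the difference did not pass, 55 having risen and 43 fallen. Their median size of change was 0.91 in AT2 cells and 0.76 in lung on the log2 scale, with a median difference of 0.19 in size and a median SE of the difference of 0.18. A difference that missed the threshold does not show that the changes were equal.

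Acoxl, related to the peroxisomal acyl-CoA oxidases, stood at 888, 691, 952 and 868 CPM in control AT2 cells and at 185, 116, 91.1, 170.1 and 110.4 CPM in Etv5KO AT2 cells. Lung held 88.6, 98.8, 109, 128 and 101 CPM in controls and 10.6, 15.2, 14.3, 23.4 and 22.6 CPM in Etv5KO. Control and Etv5KO libraries were apart in both tissues, with log2 fold changes of −2.66 and −2.61 and a difference of −0.05 (95% interval −0.66 to 0.56). Bex2, a small protein encoded on the X chromosome, stood at 252, 152, 273 and 163 CPM in control AT2 cells and at 59.5, 31.4, 16.6, 39.2 and 24.4 CPM in Etv5KO AT2 cells. Its lung levels were 20.9, 23, 21.8, 28.5 and 17.7 CPM in controls and 1.95, 2.21, 3.62, 4.17 and 5.29 CPM in Etv5KO, and the difference was 0.08 (95% interval −0.81 to 0.96).

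The same was seen for Nrn1, a surface protein that promotes neurite growth, and for Gjb1, a gap junction connexin. The log2 fold changes of Nrn1 were −2.19 in AT2 cells and −2.49 in lung, with a difference of 0.31 (95% interval −0.45 to 1.06). Those of Gjb1 were −2.20 and −2.15, with a difference of −0.05 and a wide interval of −0.99 to 0.89. Hes2, a repressor of the Hes family, had the largest change in either tissue among these genes, from 46.7 ± 22.5 to 0.912 ± 0.465 CPM in AT2 cells and from 6.91 ± 2.95 to 0.289 ± 0.106 CPM in lung (SD). Its difference of −1.17 had an SE of 0.76 and a 95% interval of −2.75 to 0.42. Myom2, which encodes a structural protein of muscle sarcomeres, rose 4.67-fold in AT2 cells and 4.01-fold in lung, with a difference of 0.22 (95% interval −0.38 to 0.82).

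The epithelial calcium channel gene Trpv6 and the receptor auxiliary gene Shisa6 passed in both tissues with a larger estimate in AT2 cells. Trpv6 stood at 56.3, 63.3, 69.4 and 41 CPM in control AT2 cells and at 8.99, 7.65, 7.65, 8.41 and 8.2 CPM in Etv5KO AT2 cells, and at 7.81, 8.39, 9.49, 7.88 and 4.71 CPM in control lung and 1.91, 1.19, 1.73, 2.5 and 1.52 CPM in Etv5KO lung. Its 95% interval for the difference, −1.25 to −0.15, lay below 0, but the edgeR adjusted p over all genes was 0.282. The difference for Shisa6 was −1.10 (95% interval −1.97 to −0.22, edgeR adjusted p 0.296).

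**Figure D4:**
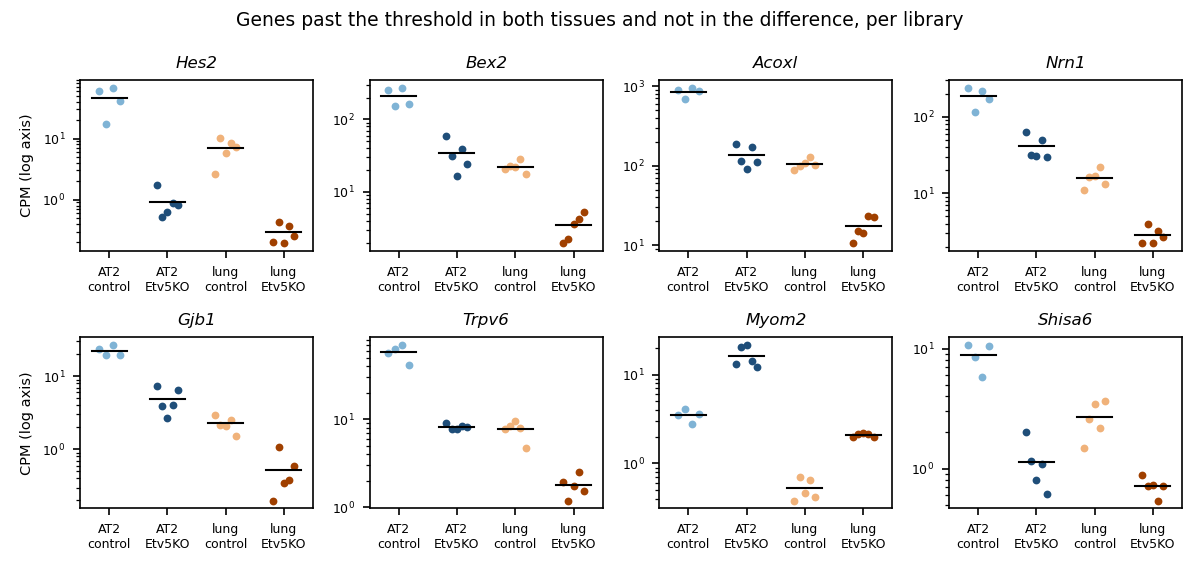
CPM per library on log axes for 8 genes that passed in both tissues without a difference between them, with points for libraries and lines for group means. Control and Etv5KO libraries are apart in AT2 cells and in lung, with lower levels in lung.

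The promoters of Acoxl (chr2:127854378-127854627, plus strand) and Bex2 (chrX:136068237-136068486, minus strand), which fell in both tissues, are shown in the same form. In that of Acoxl the capitals also cover CCGGAAGT, an ETS site form that begins 212 bases before the start.
Acoxl: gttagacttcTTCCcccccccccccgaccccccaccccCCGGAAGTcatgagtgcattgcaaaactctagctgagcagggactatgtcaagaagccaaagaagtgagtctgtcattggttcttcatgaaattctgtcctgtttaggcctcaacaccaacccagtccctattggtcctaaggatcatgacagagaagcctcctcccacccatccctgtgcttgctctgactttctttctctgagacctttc
Bex2: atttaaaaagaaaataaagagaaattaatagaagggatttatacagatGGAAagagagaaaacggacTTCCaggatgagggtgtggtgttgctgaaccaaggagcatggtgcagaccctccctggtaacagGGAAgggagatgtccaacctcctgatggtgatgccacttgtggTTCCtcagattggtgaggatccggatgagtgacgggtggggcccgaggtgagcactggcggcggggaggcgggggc

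A search of windows from 250 bases before to 50 bases after each start, on both strands, described how often these letters occur. CCGGAAGT was present in 3.89% of all 32851 windows of the table and in 6.67% of the 16400 windows of tested genes. Of the 282 genes with a difference, 214 matched the table, and 0 of their 292 windows held it. Of the 98 genes that changed alike, 78 matched, and 1 of their 100 windows, that of Acoxl, held it. CAGGAAGT was present in 3.51% of windows of tested genes, 2.40% of windows of the 282 and 1% of windows of the 98. The GGAA core alone, which lies within both longer motifs, was present in 95.7%, 92.8% and 98% of these windows. Within the 282, CAGGAAGT was in 6 of 149 windows for negative differences (4.03%) and in 1 of 143 for positive ones (0.70%). A match is a description of the sequence and not a binding site.

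A set of 11 genes passed in both tissues and in the difference, chosen after their values were seen, and in each the change was larger in AT2 cells. The number was 4 without control AT2 1 or control lung 3, 5 without control lung 2, 6 without control AT2 3 or Etv5KO lung 5, and 7 without Etv5KO AT2 3 or 5, control lung 5 or Etv5KO lung 2 or 3. Elovl1, an elongase of long fatty acids, stood at 3479, 2468, 3344 and 1939 CPM in control AT2 cells and at 673, 591, 609.9, 695 and 635 CPM in Etv5KO AT2 cells. Control lung libraries held 403, 359, 338, 480.3 and 294 CPM and Etv5KO lung libraries 159, 165, 155, 178 and 154 CPM. The groups were apart in both tissues, with log2 fold changes of −2.13 and −1.21, and the difference was −0.92 (SE 0.20, edgeR adjusted p 0.0189). It did not pass without control AT2 1 or 3 (adjusted p up to 0.07).

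Arg2, the mitochondrial arginase, stood at 33.7, 52.6, 36.5 and 31.7 CPM in control AT2 cells and at 9.78, 9.08, 9.56, 8.52 and 9.03 CPM in Etv5KO AT2 cells. The lung libraries measured 8.79, 5.69, 7.11, 7.05 and 7.25 CPM in controls and 2.99, 3.7, 3.62, 5.13 and 2.92 CPM in Etv5KO, and the difference was −1.10 (SE 0.22, edgeR adjusted p 0.0109). Both arginase genes, Arg1 and Arg2, thus had negative differences, but only Arg2 passed in lung. Acot7, a thioesterase that releases fatty acids from coenzyme A, and Hdc, which makes histamine, had differences of −0.72 and −0.97 (edgeR adjusted p 0.0426 and 0.041). Neither was stable to leaving out single libraries. Acot7 did not pass without control AT2 1, 3 or 4, Etv5KO AT2 1, 2, 3 or 5, control lung 1, 2, 3 or 5 or Etv5KO lung 1, 2, 4 or 5 (adjusted p up to 0.148), nor with RLE scaling, the authors' size factors or no count filter. Hdc did not pass without control AT2 1, 2, 3 or 4, Etv5KO AT2 2, 3 or 5, control lung 1, 2, 3 or 5 or Etv5KO lung 2, 4 or 5 (adjusted p up to 0.107), nor with library size alone.

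The surface and matrix proteins Itga9 (an integrin subunit) and Megf6 fell in both tissues with differences of −0.65 and −0.79 (edgeR adjusted p 0.00881 and 0.00502), as did the actin-associated Aif1l, with −1.01 (edgeR adjusted p 0.0165). Aif1l did not pass without control AT2 1 or 3 (adjusted p up to 0.0595). The 4 genes that rose further in AT2 cells were Ndnf, Dpep2, S100a14 and St3gal5. Ndnf, a secreted trophic protein, stood at 69.4, 93, 72.4 and 85.9 CPM in control AT2 cells and at 259, 368, 284, 292 and 314 CPM in Etv5KO AT2 cells, and at 189, 174, 131, 146 and 117 CPM in control lung and 179, 240.0, 258, 196 and 305 CPM in Etv5KO lung. Its difference was 1.28 (SE 0.22, edgeR adjusted p 0.00229), and that of the membrane dipeptidase gene Dpep2 was 1.11 (SE 0.16, edgeR adjusted p 0.000352). St3gal5, which makes the ganglioside GM3, had a difference of 0.45 (edgeR adjusted p 0.0146).

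S100a14, a calcium-binding protein of epithelia, rose 4.6-fold in AT2 cells and 2.29-fold in lung, a difference of 1.01 (edgeR adjusted p 0.047) that did not pass without control AT2 1, Etv5KO AT2 1, 2, 3, 4 or 5, control lung 1, 2, 3 or 4 or Etv5KO lung 1, 3, 4 or 5 (adjusted p up to 0.102), nor with library size alone. When lung was fitted without the AT2 libraries, Dpep2, Hdc, Itga9, Megf6 and Ndnf did not pass in lung (edgeR adjusted p 0.102, 0.0651, 0.0637, 0.15 and 0.201).

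No gene passed in both tissues with opposite signs (2 did without Etv5KO lung 4). For 95 of the 282 genes the lung estimate, not past the threshold, lay on the other side of 0. Among all 17698 genes tested the signs of the 2 estimates differed for 6741, which is a larger share. Ephx2, an epoxide hydrolase of lipid signalling, passed in the difference through estimates that lay on opposite sides. It stood at 0.706, 0.633, 0.693 and 0.475 CPM in control AT2 cells and 0.394, 0.37, 0.296, 0.403 and 0.516 CPM in Etv5KO AT2 cells, and at 2.12, 1.82, 1.44, 1.55 and 1.96 CPM in control lung and 2.63, 3.44, 3, 1.96 and 3.17 CPM in Etv5KO lung. The groups overlapped in both tissues. The log2 estimates were −0.68 and 0.68, and the difference was −1.36 (SE 0.31, edgeR adjusted p 0.0245). It did not pass without control AT2 1 or 3 or Etv5KO AT2 3 (adjusted p up to 0.0841), nor with no count filter.

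Another 13 genes passed in lung and not in AT2 cells, and none of them passed in the difference, so a lung-specific change was not shown for any. They were Cdh22, Cyp4f39, Gli1, Gm15651, Gm31512, Gm5084, Il33, Marco, Mfsd2a, Muc1, Nkx2-1, Ptgs1 and Slc26a4, a set chosen after its values were seen. Mfsd2a, a transporter of lysophospholipids, had the smallest p of the difference among them. It stood at 112, 104, 106 and 159.7 CPM in control AT2 cells and at 157, 176, 181, 161 and 180.0 CPM in Etv5KO AT2 cells, and at 3.4, 4.16, 6.81, 5.83 and 5.29 CPM in control lung and 10.7, 18.5, 9.78, 16.3 and 9.05 CPM in Etv5KO lung. Control AT2 library 4 lay among the lower Etv5KO libraries, while the lung groups did not overlap. The difference was −0.81 (SE 0.27, edgeR adjusted p 0.205).

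Several of these 13 genes belong to the epithelium, and their AT2 estimates had the sign of the lung change. Nkx2-1, the lineage transcription factor of lung epithelium, had log2 estimates of 0.20 in AT2 cells and 0.29 in lung (difference −0.09, 95% interval −0.28 to 0.10). The alarmin gene Il33 had estimates of 0.45 and 0.77 (difference −0.32, 95% interval −0.77 to 0.13), and the mucin gene Muc1 of 0.24 and 0.33 (difference −0.09, 95% interval −0.32 to 0.13). In AT2 cells fitted alone, Il33 and Mfsd2a did pass (edgeR adjusted p 0.0422 and 0.0211). With DESeq2, Gm15651, Il33, Muc1, Nkx2-1 and Ptgs1 passed in AT2 cells (DESeq2 adjusted p 0.0265, 0.0412, 0.0041, 0.00574 and 0.0418). Others of the 13 were nearly absent from AT2 cells. Marco, a scavenger receptor of alveolar macrophages, went from 15.9 ± 3.79 to 6.54 ± 1.8 CPM in lung and stood at 0.694 and 0.377 CPM in control and Etv5KO AT2 cells. Gli1, an effector of hedgehog signalling, went from 7.89 ± 2.02 to 14.4 ± 3.09 CPM in lung (SD, n = 5 each) and stood at 0.245 and 0.382 CPM in AT2 cells. In lung fitted alone only Cdh22, Gm5084, Marco, Mfsd2a and Slc26a4 of the 13 passed.

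The genes that differed were distributed unevenly over the control levels of the tissues. The level in control AT2 cells divided by that in control lung had a median of 0.529 for the 282 genes, 0.347 for those with a positive and 1.26 for those with a negative difference. It was 5.69 for the 98 genes that changed alike, of which none was lower in control AT2 cells, and 0.984 for all genes tested. Among the genes that passed in AT2 cells and had a control level in AT2 cells at least 4 times that in lung, 74 had risen and 151 fallen. For the 74, the median log2 change was 0.66 in AT2 cells and 0.68 in lung, and none passed in the difference. For the 151, it was −0.93 in AT2 cells and −0.53 in lung, and 10 passed in the difference. Where the control AT2 level was under 0.25 times that of lung, 143 genes had risen in AT2 cells, with medians of 1.07 in AT2 cells and 0.03 in lung, and 54 of them passed in the difference. Another 66 had fallen, with medians of −0.83 and −0.08, of which 20 passed. These ratios share their control libraries with the difference, so the relation was not tested.

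The pathway upstream of Etv5 was described by 20 feedback and target genes of ERK signalling, of which 2 had a positive and 1 a negative difference, against 0.791% and 0.802% of all genes tested. In AT2 cells 5 rose and 2 fell (4.96% and 5.18% of all genes tested), and none passed in lung (0.689%). Etv4, with Etv1 and Etv5 a member of the PEA3 group, stood at 0.488, 0.827, 0.996 and 0.356 CPM in control AT2 cells and at 4.53, 4.8, 3.34, 4.03 and 6.09 CPM in Etv5KO AT2 cells. In lung it stood at 1.66, 0.235, 0.302, 0.684 and 0.582 CPM in controls and at 1.28, 0.978, 1.04, 0.667 and 1.06 CPM in Etv5KO. The AT2 groups were apart at a low level and the lung groups overlapped, with a difference of 2.20 (SE 0.55, edgeR adjusted p 0.0451). Etv4 did not pass without control AT2 1, 2 or 4, Etv5KO AT2 1, 2, 4 or 5, control lung 1, 4 or 5 or Etv5KO lung 2, 3, 4 or 5 (adjusted p up to 0.096), nor with limma-voom. Etv1 had a difference of 0.44 that did not pass (edgeR adjusted p 0.659). Ccnd1, the cyclin that drives entry into the cell cycle, stood at 566, 565, 539 and 411 CPM in control AT2 cells and at 952, 1325, 1289, 1135 and 1107 CPM in Etv5KO AT2 cells. Lung held 348, 307, 244, 324 and 327 CPM in controls and 453, 414, 407, 430.4 and 369 CPM in Etv5KO, without overlap but not past the threshold (edgeR adjusted p 0.109), and the difference was 0.74 (SE 0.16, edgeR adjusted p 0.0182).

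The feedback inhibitor gene Spry1 stood at 446 ± 39.6 CPM in control and 263 ± 15.2 CPM in Etv5KO AT2 cells, and at 128 ± 12.7 and 108 ± 13.9 CPM in lung (SD). Its difference was −0.51 (edgeR adjusted p 0.0453) and did not pass without control AT2 1, 2 or 3, Etv5KO AT2 1, 2, 3 or 4, control lung 1, 2, 4 or 5 or Etv5KO lung 2, 3 or 5 (adjusted p up to 0.113). Spry1 also missed the threshold with RLE scaling, with library size alone, with the authors' size factors and with no count filter. Of 16 receptors and ligands of the FGF, EGF and MET families, 4 rose in AT2 cells (4.96% of all genes tested), 1 rose in lung (0.396%), and none passed in the difference (1.59%), so that the last count was near that of genes in general. Among 22 tested members of the ETS family, Elk3 and Etv4 had positive differences, against 0.791% of all genes tested. Elk3, an ERK-regulated repressor, went from 64 ± 6.1 to 117 ± 7.29 CPM in AT2 cells and stood at 181 ± 14.5 and 177 ± 20.9 CPM in lung, a difference of 0.90 (SE 0.12, edgeR adjusted p 0.000178).

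Of 20 markers of AT2 cells, none passed in the difference (1.59% of all genes tested did), although the estimate of the difference was negative for all 20. In AT2 cells 7 fell (5.18% of all genes tested), and in lung 3 rose (0.396%) and 5 fell (0.294%). The median log2 changes were −0.28 in AT2 cells and −0.17 in lung. The median difference was −0.14, against a median difference of −0.01 over all genes tested. The chitinase-like Chil1 had changes of −1.05 and −0.85, surfactant protein A (Sftpa1) of −0.93 and −0.77, and the fatty acid binding protein gene Fabp5 of −2.01 and −1.37 in AT2 cells and lung, each past the threshold in both. Sftpc passed in neither, with estimates of −0.16 and 0.04 and a difference of −0.21 (95% interval −0.69 to 0.28). Of the 19 tested genes for making fatty acids and surfactant phospholipids, 1 rose and 7 fell in AT2 cells (4.96% and 5.18% of all genes tested). In lung 1 rose and 3 fell (0.396% and 0.294%), and Elovl1 alone passed in the difference (1.59%). Gpam, the first enzyme of glycerolipid synthesis, rose in both tissues, by 1.10 and 0.93 on the log2 scale (difference 0.16, SE 0.10). The 8 genes of the MHC class II pathway had median changes of 0.39 in AT2 cells and 0.35 in lung, and their summed level was 6777 to 7838 CPM in control and 9201 to 10830.4 CPM in Etv5KO AT2 cells and 2376 to 3354 CPM in control and 3435 to 4460.5 CPM in Etv5KO lung. None of them passed in the difference, against 1.59% of all genes tested.

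**Figure D5:**
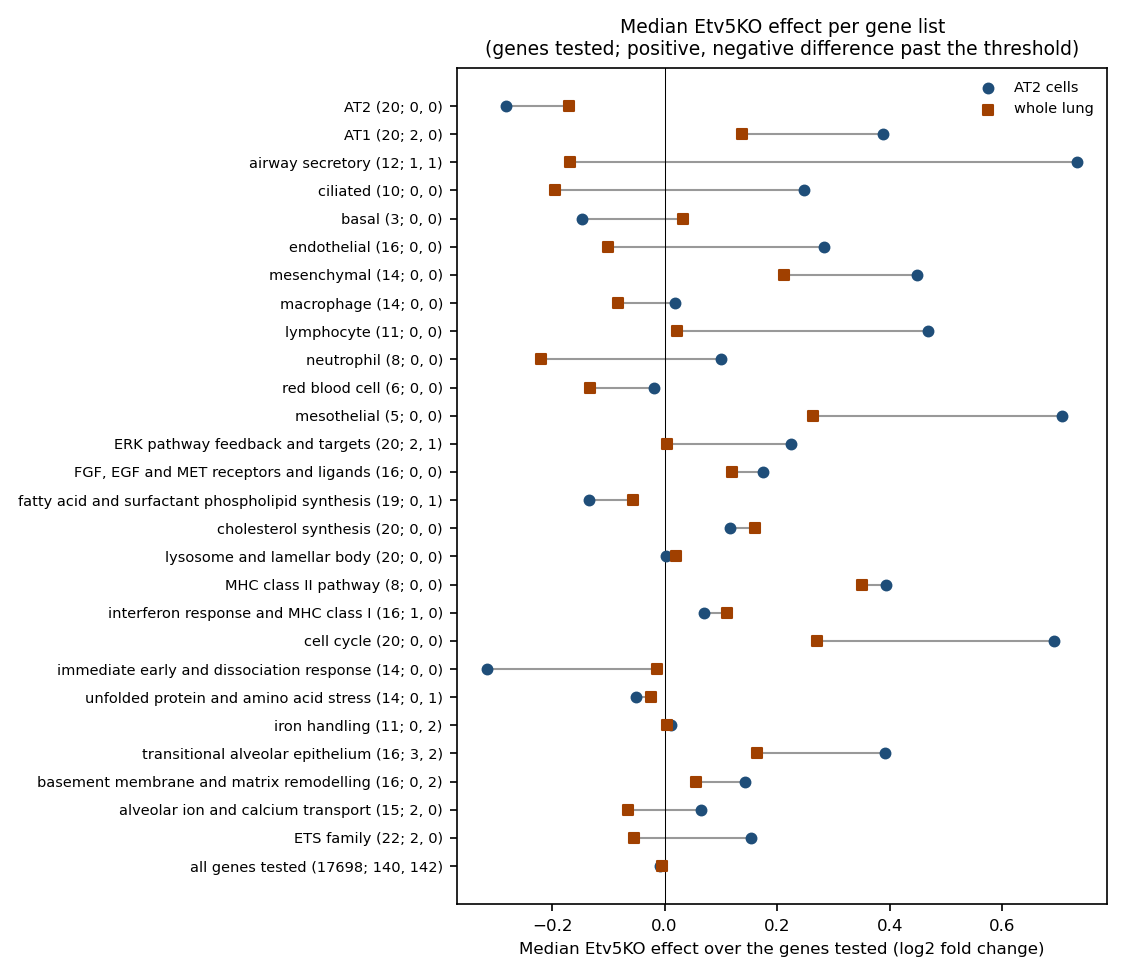
Median Etv5KO effect (log2 fold change, x axis) over the tested genes of each list, with circles for AT2 cells and squares for whole lung. Beside each list name stand the number of genes tested and the numbers with a positive and a negative difference past the threshold. The medians lay close together for MHC class II genes (0.39 in AT2 cells and 0.35 in lung) and were furthest apart for the airway secretory list (0.73 and −0.17).

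Of 20 markers of AT1 cells, 11 rose and 1 fell in AT2 libraries, against 4.96% and 5.18% of all genes tested, and none passed in lung, against 0.689%. The median log2 change was 0.39 in AT2 cells and 0.14 in lung, and the median difference 0.19. Clic5, a chloride intracellular channel protein, and Emp2, an epithelial membrane protein, passed in the difference. Clic5 stood at 153, 170.1, 154 and 166 CPM in control AT2 cells and at 305, 381, 297, 299.8 and 271 CPM in Etv5KO AT2 cells, while lung libraries held 1013 to 1197 CPM in controls and 990.3 to 1389 CPM in Etv5KO. The difference was 0.87 (SE 0.14, edgeR adjusted p 0.00117), and that of Emp2 was 0.45 (SE 0.10, edgeR adjusted p 0.0213). The 1 that fell in AT2 cells was the water channel gene Aqp5, from 609 to 493 CPM (log2 −0.30, edgeR adjusted p 0.0196), with a difference of −0.44 that did not pass (edgeR adjusted p 0.0522). Pdpn, the AT1 surface protein podoplanin, had estimates of −0.68 in AT2 cells and −0.87 for the difference, neither past the threshold (edgeR adjusted p 0.0913 and 0.252). The summed level of the 20 markers was 6591 to 7361 CPM in control and 9249 to 9571 CPM in Etv5KO AT2 cells, without overlap, and 10677 to 11171 and 10335 to 13859 CPM in control and Etv5KO lung. Ager, Cldn18, Gprc5a and Aqp5 held 2241, 1424, 661 and 609 CPM of the sum in control AT2 cells. That was more than the 1602, 707, 510 and 234 CPM of control lung, while the remaining markers were lower in control AT2 cells. Ager and Cldn18 rose to 2994 and 1917 CPM in Etv5KO AT2 cells.

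Genes seen in the transition from AT2 to AT1 cells went both ways in the difference. In AT2 cells 8 of the 16 rose and 2 fell (4.96% and 5.18% of all genes tested), and in lung 1 rose (0.396%). The median log2 change was 0.39 in AT2 cells and 0.16 in lung. Of 16, 3 had a positive difference (Lgals3, S100a6 and Tnip3) and 2 a negative one (Nupr1 and Clu), against 0.791% and 0.802% of all genes tested. Lgals3, which encodes galectin-3, rose 2-fold in AT2 cells and S100a6 2.21-fold, with differences of 0.85 and 0.88 (edgeR adjusted p 0.00502 and 0.00915). Tnip3, outside the naming rule, had 1.68 (edgeR adjusted p 0.0488). Nupr1, a stress-induced chromatin protein, stood at 200.5, 137, 242 and 155 CPM in control AT2 cells and at 56.1, 22.3, 34.8, 45.1 and 33.9 CPM in Etv5KO AT2 cells. Its lung levels were 62.3, 72.6, 78.6, 69.4 and 68.7 CPM in controls and 51.1, 53.4, 45.5, 45.2 and 55.6 CPM in Etv5KO. The groups did not overlap in either tissue, but the lung change of −0.49 did not pass (edgeR adjusted p 0.529), and the difference was −1.77 (SE 0.26, edgeR adjusted p 0.000494). With lung fitted alone, the lung change of Nupr1 did pass (edgeR adjusted p 0.0166). The secreted chaperone gene Clu had a difference of −0.61 (edgeR adjusted p 0.0183) and did not pass without control AT2 1 or 2 or Etv5KO AT2 1 or 3 (adjusted p up to 0.0621), nor with library size alone.

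Airway secretory markers held 1 difference in each direction among 12, against 0.791% positive and 0.802% negative over all genes tested, with a median difference of 0.63. Cyp2f2, a cytochrome P450 of club cells, stood at 146, 81.4, 137 and 92.2 CPM in control AT2 cells and at 349, 372, 381, 332 and 361 CPM in Etv5KO AT2 cells. Control lung libraries held 1126, 2252, 2046, 2319 and 2148 CPM and Etv5KO lung libraries 1866, 1271, 1473, 2013 and 1439.7 CPM. It rose in AT2 cells without overlap, and in lung control library 1 was the lowest of all 10. The difference was 1.95 (SE 0.27, edgeR adjusted p 0.000296). Cckar, the receptor for cholecystokinin, had a difference of −1.13 (edgeR adjusted p 0.0242) and did not pass without control AT2 1 or 3 or Etv5KO AT2 3 (adjusted p up to 0.0761). The summed level of the 12 markers was 4790.4 to 7058 CPM in control and 7982 to 9877 CPM in Etv5KO AT2 cells, and 16196 to 30586 and 20625 to 27392 CPM in control and Etv5KO lung.

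Markers of other cell types were present at low levels in the sorted cells. The 10 ciliated markers summed to 119 to 138 CPM in control and 175 to 230.1 CPM in Etv5KO AT2 cells, without overlap, and to 348 to 514 and 379 to 572 CPM in control and Etv5KO lung. Of the 10, 2 rose in AT2 cells and 1 fell, against 4.96% and 5.18% of all genes tested. Foxj1, the master regulator of motile cilia, had means of 2.81 and 2.72 CPM in control and Etv5KO AT2 cells. The club cell marker Scgb1a1 had means of 407 and 458 CPM there and did not pass (edgeR adjusted p 0.776). The 16 endothelial markers summed to 322 to 393 and 303 to 389.8 CPM in control and Etv5KO AT2 cells and to 6811 to 8585 and 5674 to 8267 CPM in control and Etv5KO lung. The 14 mesenchymal markers summed to 265 to 493 and 292 to 641 CPM and the 14 macrophage markers to 105 to 151 and 83.8 to 114 CPM in control and Etv5KO AT2 cells, with overlap. The median log2 change in AT2 cells was 0.28 for endothelial, 0.45 for mesenchymal and 0.02 for macrophage markers. Car4 rose and Esam fell among endothelial markers, none passed among mesenchymal, and 2 rose and 1 fell among macrophage markers. Over all genes tested 4.96% rose and 5.18% fell. Pecam1, of endothelial cells, Col1a1, of fibroblasts, and Cd3e, of T cells, had means of 20.2, 11.8 and 0.338 CPM in control and 24.7, 15.8 and 0.301 CPM in Etv5KO AT2 cells, where none of these passed. None of the ciliated, basal, endothelial, mesenchymal, macrophage, lymphocyte, neutrophil, red blood cell or mesothelial markers tested passed in the difference. Over all genes tested 1.59% did, so this count was near that of genes in general. The 5 mesothelial markers summed to 70.4 to 81.4 CPM in control and 86.7 to 114 CPM in Etv5KO AT2 cells, also without overlap, of which Krt19, a keratin of many epithelia, held means of 62.9 and 79 CPM. In control AT2 cells Cbr2 and Hp held 4384 and 1407 CPM of the airway sum, more than the 1945 and 773 CPM of control lung, and Tppp3 held 96.2 CPM of the ciliated sum. Likewise Esam, Npnt and Cd14 held 200, 281 and 64.2 CPM of the endothelial, mesenchymal and macrophage sums. Control lung held 264, 888 and 29.2 CPM of these genes. The AT1, airway, ciliated and mesothelial sums were higher in the Etv5KO libraries of sorted cells than in controls. The part of other cells in the differences was not tested.

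The counts in the remaining groups stand against a positive difference for 0.791% and a negative one for 0.802% of all genes tested. Of 15 tested genes of alveolar ion and calcium transport, the chloride channel gene Ano1 and the sodium channel subunit gene Scnn1b had positive differences. Ano1 stood at 34, 41.8, 31.3 and 32.9 CPM in control AT2 cells and at 112, 179, 139.7, 123 and 124 CPM in Etv5KO AT2 cells, and at 123, 117, 103, 117 and 103 CPM in control lung and 133, 184, 156, 121 and 187 CPM in Etv5KO lung. The AT2 groups were apart and the lung groups overlapped, with a difference of 1.48 (SE 0.19, edgeR adjusted p 0.000141). Scnn1b had 0.59 (edgeR adjusted p 0.0357) and did not pass without control AT2 1 or 4, Etv5KO AT2 3 or 5, control lung 2, 3, 4 or 5 or Etv5KO lung 2, 3 or 4 (adjusted p up to 0.0761).

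Iron handling held 2 negative differences among 11 tested genes, against 0.802% of all genes tested, that of Trf and that of the ferroxidase gene Heph. Heph went from 3.71 ± 0.29 to 2.45 ± 0.406 CPM in AT2 cells and stood at 21.6 ± 1.94 and 24.1 ± 3.59 CPM in lung (SD), a difference of −0.76 (edgeR adjusted p 0.0273) that did not pass without control AT2 3 or 4 or Etv5KO AT2 1, 3 or 5 (adjusted p up to 0.0908), nor with limma-voom. Of 16 matrix genes, the 2 with a difference were Tgfbi and Adamts1, and of 14 stress response genes the only 1 was Nupr1. The interferon-induced GTPase gene Gbp2 was the only 1 of 16 interferon and MHC class I genes with a difference, of 0.79 (edgeR adjusted p 0.0199). None of the tested genes of the cell cycle (20), cholesterol synthesis (20), the lysosome and lamellar body (20) or the immediate early response (14) passed in the difference. With 1.59% of all genes tested past it, these counts were near that of genes in general.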

How the data were processed

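Polyadenylated RNA was sequenced in 19 mouse libraries. The deposited files hold, per the file headers, a count of uniquely aligned reads per gene model. They also hold RPKM values that the authors adjusted with a size factor for each library, used here only to recover those factors. GSNAP and genome build mm9 are named in the submitters' processing notes, and no source used here names the annotation, counting tool or strand setting. Genes with near-identical copies lose reads when only unique alignments count. IDs were named from RefSeq tables of GRCm38.p6 (31049) and GENCODE (78), and 5401 stayed unnamed. Named genes hold 98.8% of counts.

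Counts of all 19 libraries were fitted in 1 model with a mean per group (edgeR 4.0.16, R 4.3.3; filterByExpr with minimum count 10 and minimum total 15, TMM scaling), and 3 two-sided contrasts gave the AT2 effect, the lung effect and their difference. SEs were derived from the F statistic, intervals are at 95%. Alternatives were other scalings and filters, DESeq2 1.42.0, limma-voom (limma 3.58.1), separate fits by tissue, a test against 1.2-fold, and leaving out each library. The methods were tested on simulated data. Libraries of a group differed beyond sampling noise (chi-square over degrees of freedom at least 7.81), so none was a copy of another, which does not show that they came from separate mice. The fifth control AT2 sample named in the series design was not analysed here. Nothing in the labels dates or batches the libraries.

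Genes named were Etv5, the 10 largest differences in each direction at a mean of at least 1 CPM in both tissues and 5 CPM in 1 group, up to 8 genes that changed alike, and up to 4 members past the threshold and the 2 most abundant of each of 27 gene lists. The comparison, the rule and the lists were chosen with earlier results of these data known.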

Additional observations from a re-analysis of the deposited data

Results flagged for a closer look

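The effect of Etv5KO differed between AT2 cells and lung for 282 genes by the test of the difference itself. The named genes with a negative log2 difference were Adamts1 (−4.10), Rbp4 (−4.04), Trf (−3.47), Tgfbi (−2.92), Gdpd2 (−2.59), Lrrn3 (−2.41), Slit3 (−2.34), Ppp1r3c (−2.29), St6galnac3 (−2.22), Arg1 (−2.09), Nupr1 (−1.77), Ephx2 (−1.36), Cckar (−1.13), Arg2 (−1.10), Aif1l (−1.01), Hdc (−0.97), Elovl1 (−0.92), Megf6 (−0.79), Heph (−0.76), Acot7 (−0.72), Itga9 (−0.65), Clu (−0.61) and Spry1 (−0.51). Those with a positive difference were Cacna1h (3.89), Angpt2 (2.88), Cyp1b1 (2.71), Sema6c (2.47), Atp2b2 (2.44), Ccdc88b (2.40), Rapgef4 (2.39), Ces1g (2.20), Etv4 (2.20), Ncf1 (1.98), Entrez Gene 102632321 (1.97), Cyp2f2 (1.95), Ano1 (1.48), Ndnf (1.28), Dpep2 (1.11), S100a14 (1.01), Elk3 (0.90), S100a6 (0.88), Clic5 (0.87), Lgals3 (0.85), Gbp2 (0.79), Ccnd1 (0.74), Scnn1b (0.59), Emp2 (0.45) and St3gal5 (0.45).

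Single libraries lay far from the rest of their group in 17 of 280 groups looked at (70 genes in 4 groups), where chance gives about 1 in 20. Control lung 1 was high for Adamts1 (207 CPM) and low for Cyp2f2 (1126 CPM) and for Entrez Gene 102632321 (226 CPM). Control lung 4 was high for Acot7 (139 CPM) and low for Cdh22 (1.22 CPM). Control AT2 library 2 was high for Gdpd2 (20.8 CPM) and Slc26a4 (87.6 CPM), and control AT2 library 4 for Mfsd2a (160 CPM, 159.7 to 1 decimal). Among Etv5KO AT2 libraries, library 1 was high for Hes2 (1.71 CPM), library 2 for Ccdc88b (14.8 CPM) and library 5 for Lrrn3 (0.619 CPM). Library 3 was high for Ncf1 (121 CPM) and low for Tgfbi (7.65 CPM), and library 5 was low for St3gal5 (145 CPM). Among Etv5KO lung libraries, library 1 was high for Atp2b2 (12.2 CPM), and library 3 was low for Etv5 (94.4 CPM) and Trf (327 CPM).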

How the results depend on the processing

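The 282 genes kept the sign of the difference wherever they were tested under all 29 alternatives, and 30 of the 48 named genes past the threshold stayed past it in each alternative that tested them. The other 18 did not pass against a 1.2-fold change. The count lay between 248 and 380 under other scalings, filters, limma-voom and separate fits. With DESeq2 it was 456 (236 positive, 220 negative), 452 of them past the AT2 test and 25 past the lung test, lung had 195 calls, and of 179 genes past both tissues 24 differed. With limma-voom 17 genes past both tissues differed, and 18 passed in the difference and in lung. With tissues fitted separately lung had 71 calls, 65 genes passed in both tissues and 7 of them differed, and 7 passed in the difference and in lung. Against a 1.2-fold change, 128 genes passed (66 positive, 62 negative).

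Leaving out single libraries gave 198 to 319 differences, 106 to 184 positive and 85 to 161 negative. The lowest negative counts were 88 without control AT2 library 1 and 85 without control AT2 library 3. Genes past both tissues and different numbered 4 to 12, and genes past the difference and lung 4 to 13, with 4 without control AT2 library 1 or control lung library 3. Genes with opposite signs past both tissues numbered 0 to 2, with 2 without Etv5KO lung library 4. The causes were not tested. Ets1 passed with DESeq2 and without control AT2 library 2 or Etv5KO AT2 library 4, and Krt7 without control AT2 library 2.

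No paired analysis was run because the labels give no replicate numbers and do not tie AT2 and lung libraries to mice. If AT2 and lung libraries did share mice, the SEs and p-values of the difference leave that out. The median SE of the difference was 0.19 on the log2 scale. A difference must be several times its SE to pass over so many genes, and the 282 had a median size of 0.97. Those of Trpv6 (−0.70, SE 0.26) and Mfsd2a (−0.81, SE 0.27) did not pass, so differences well above 0.19 can be missed. Genes that are rare in AT2 cells have few counts there, and sorted cells and tissue were prepared differently, which cannot be told apart from tissue.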
